A study of Poecilia latipinna with 15 samples.

Results

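The red module is one of the co-expression modules that the study built from the brain transcriptomes of 15 female sailfin mollies (Poecilia latipinna), and its core was described here as a set of transcripts. A transcript belonged to the core when its log2(CPM + 1), where CPM is the estimated count per 1000000 counts of the library, followed the red eigengene over the 15 females with a Pearson's r above 0.8. Only the 21671 transcripts that exceeded 2 TPM in at least 3 females were considered (TPM, a level corrected for length, has the same total in each library). Of these, 150 met this rule, and the files list 31813 transcripts in all. Of these 150 members 137 had counts in every female and the other 13 were at 0 in some.

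Each female spent a trial of 30 min with 2 stimulus fish of unequal size behind dividers, and her whole brain was taken straight after it. In the male-interaction context (Mm, n = 8) the stimuli were males and the choice was one of a mate. In the female-interaction context (Ff, n = 7) they were females and the choice was one of a shoaling partner. All females were adult and sexually experienced, came from a semi-natural population and were socially isolated for weeks before the trial. There was no group without social stimuli and only females with high social affiliation were kept. Each library is a whole brain, so a lower level can reflect fewer cells of a type or less RNA per cell, which bulk libraries cannot tell apart.

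Co-expression analysis groups genes whose levels rise and fall together over individuals. The eigengene of a module is its first principal component, 1 value per animal that summarizes the shared pattern. Modules from whole brains often group genes of 1 cell type, of 1 protein complex or of 1 cellular process, and membership alone does not say which. No table used here pairs the transcript identifiers with gene names, so the members are given by identifier and the lists of brain cell type markers could not be applied. The functions of the members are therefore not described.

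The libraries held between 3424641 and 10555933 estimated counts, and the members together took between 0.451% and 0.932% of them. No member was among the 100 most abundant transcripts of any female. Females are called here by the number in their label. The females were split by number into the sets 1 to 8 and 9 to 19. Each set holds females of both contexts, and what the numbers stand for is not given in the sources used here. In a limma fit given below, 2.62% of all transcripts followed the number after adjustment. Single transcripts were not compared between the sets. Values within each set are therefore given beside those over all females.

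The members were chosen by their r with the red eigengene, a measured value that is given as a description. It had a median of 0.834 over the 150 members and exceeded 0.9 in 12. The highest values were 0.941 for ENSPLAT00000014691.1 and 0.927 for ENSPLAT00000019808.1. Just inside the threshold stood ENSPLAT00000016198.1 (r = 0.800166) and ENSPLAT00000030623.1 (r = 0.800298), and just outside it ENSPLAT00000002982.1 (r = 0.799905) and ENSPLAT00000025047.1 (r = 0.799659). A pair of transcripts on either side of the rule thus differed by less than 0.001 in r, and the core has no natural edge.

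The members varied as nearly 1 unit. Their first principal component held 71.4% of their variance and the second 4.05%, and the median r over the 11175 pairs of members was 0.715, with the lowest pair at 0.357. The mean deviation of the members from their own means, in log2(CPM + 1), had an r of 0.996 with the red eigengene, so it stands for the eigengene in the values that follow. Because the members share 1 pattern by their choice, a count of members is not a count of independent observations.

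In the male-interaction context the mean deviation of the 150 members was lowest in female 4 (-0.44 log2 units), had a median of 0.04 and was highest in female 12 (0.52). In the female-interaction context it was lowest in female 19 (-0.60), had a median of -0.24 and was highest in female 17 (0.66). The ranges of the contexts overlapped, and both the highest and the lowest females had met female stimuli. Female 17 held the highest level of 72 members and female 12 that of 30, whereas female 19 held the lowest level of 57 and female 2 that of 44. In female 17 149 members stood above their own mean and in female 12 148, against 0 in females 2 and 19.

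**Figure D1:**
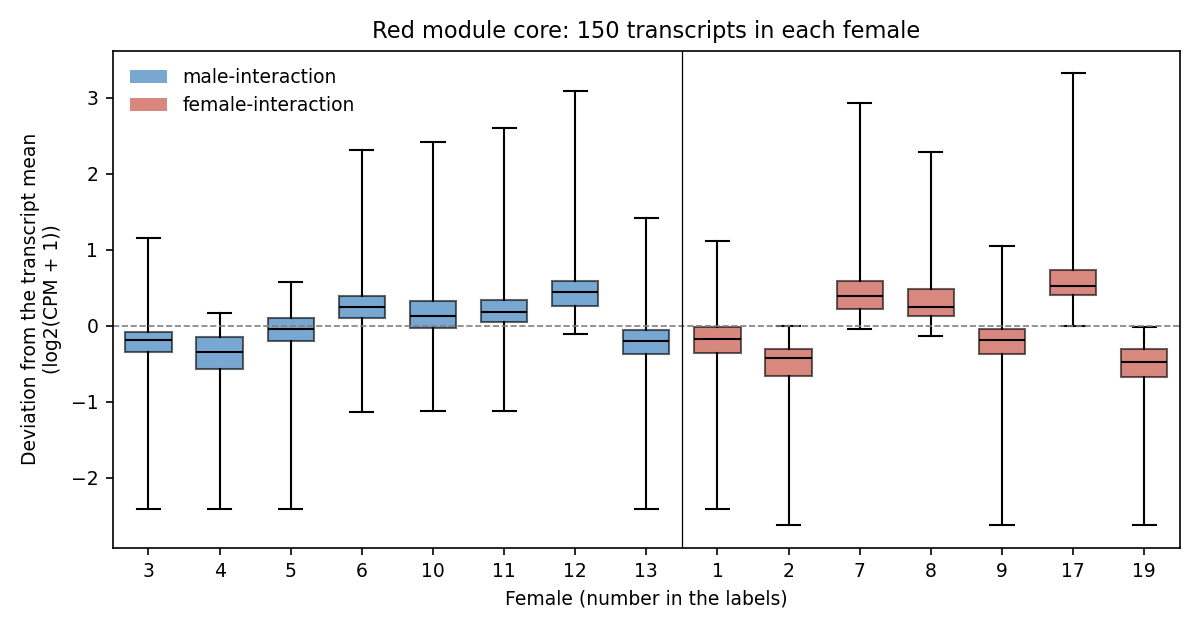
Deviation of the 150 members from their own mean (log2(CPM + 1)) in each female, male-interaction females to the left of the line and female-interaction females to the right. Boxes span the quartiles with the median as a bar, and whiskers reach the lowest and highest member. Females 12 and 17 sit almost wholly above 0 and females 2 and 19 almost wholly at or below it.

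Among the 137 members with counts in every female the highest TPM was a median of 2.62 times the lowest, from 1.81 to 36.2 times. The most abundant member, ENSPLAT00000011380.1 (mean 339 TPM), lay between 195 and 481 TPM with a median of 323 TPM in the male-interaction context and between 164 and 575 TPM with a median of 317 TPM in the female-interaction context. The member with the highest r, ENSPLAT00000014691.1, lay between 37.0 and 86.3 TPM with a median of 54.5 TPM in the male-interaction context, and between 31.9 and 95.8 TPM with a median of 48.5 TPM in the female-interaction context. For both members the contexts overlapped over most of their range.

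A smaller group of members was not detected in some libraries at this depth. In 12 members 3 or more females were at 0, and the highest TPM of these 12 in any female lay between 4.67 and 15.5. None of the 12 was at 0 in females 7, 8, 12 and 17, whereas 11 of them were at 0 in female 2, 10 in female 19 and 9 in female 4. ENSPLAT00000017763.1, the member with the largest SD, had 0, 0, 0.105, 0.934, 2.36, 6.18, 9.79 and 2.63 TPM in male-interaction females 3, 4, 5, 6, 10, 11, 12 and 13. In female-interaction females 1, 2, 7, 8, 9, 17 and 19 it had 0, 0, 8.28, 3.64, 0, 12.0 and 0 TPM. ENSPLAT00000016958.1 was at 0 in females 4, 5 and 13, who met males, and in females 2, 9 and 19, who met females, and its highest values were 4.67 TPM in female 11 and 3.84 TPM in female 17. The zeros fell in both contexts and in both sets of numbers. Of all 21671 transcripts tested 19.3% were at 0 in some female, against 8.67% of the members.

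**Figure D2:**
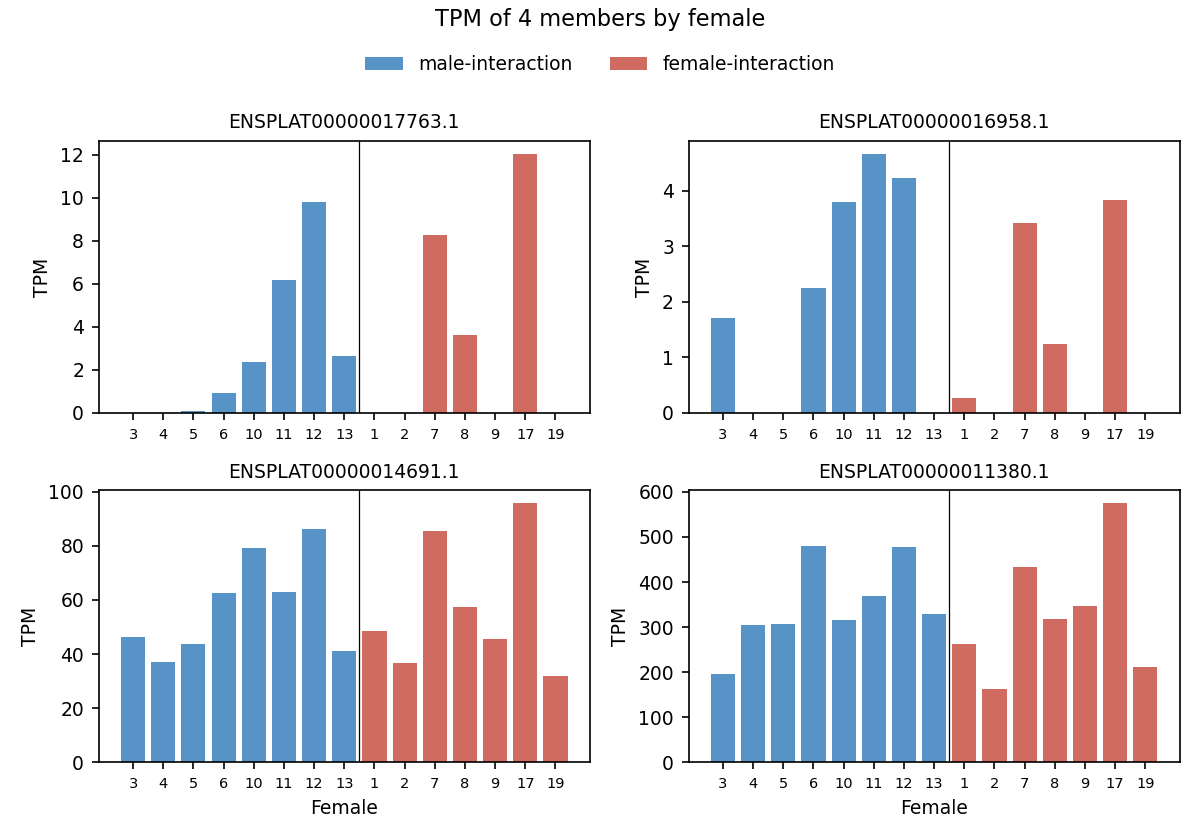
TPM of 4 members in each female, male-interaction females left of the line and female-interaction females right of it. The upper panels show the members with the largest SD, which were both at 0 in females 2, 4, 9 and 19. The lower panels show the member with the highest r and the most abundant member, which were present in every female.

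Length, level and spread of the members were set beside those of all transcripts tested, as descriptions. The filter used TPM and the rule used log2(CPM + 1), so level and spread are not independent of the choice of the members. The annotated length of the members had a median of 2360 bases, against 1782 bases over all transcripts tested, and 62% of the members exceeded 2000 bases, against 45.2%. Their mean TPM had a median of 14.1, against 10.9. The median SD of log2(CPM + 1) was 0.402 in the members and 0.394 in all transcripts, so the medians were close. Of the members 3 had identical estimated counts in every female and the same length of 2439 bases, which leaves 148 distinct profiles, and reads shared by such near-identical transcripts cannot be assigned to one of them.

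A set of 31 transcripts ran the opposite way, with an r below -0.8. The lowest were ENSPLAT00000020095.1 (r = -0.912) and ENSPLAT00000026330.1 (r = -0.877). ENSPLAT00000020095.1 lay between 79.0 and 117 TPM with a median of 102 TPM in the male-interaction context and between 77.5 and 122 TPM with a median of 111 TPM in the female-interaction context. Its lowest value was in female 17 and its highest in female 19, where the members were at their highest and lowest. The 31 transcripts had a median length of 1196 bases and a median mean TPM of 51.7, so they were shorter and more abundant than the members.

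The core overlapped with few others built by the same rule on the other eigengenes. It shared 14 transcripts with the core of the lightgreen module, which are 9.33% of the red core and 14.1% of the 99 in the lightgreen core. It shared 9 with the brown core (6% of the red core and 3.42% of the brown one) and 6 with the royalblue core (4% and 7.32%). The other 21 cores shared none, the turquoise core with 572 transcripts among them. A length above that of all transcripts was not particular to the red core. The median length was 3117 bases in the brown core, 2958 in the royalblue, 2299 in the lightgreen and 1845 in the turquoise core. The median of the mean TPM was 13.3, 24.0, 10.8 and 7.83 in the same order.

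In the first comparison of the study, between the social contexts, no member was called. The red eigengene averaged 0.0105 ± 0.209 (SD, n = 8) in the male-interaction context and -0.0121 ± 0.340 (SD, n = 7) in the female-interaction context, a difference far below the spread within either (exact permutation test of the mean over 6435 splits, 2-sided, p = 0.874, adjusted p = 0.965; on ranks p = 1, adjusted p = 1). Within females 1 to 8 the difference was -0.074 and within females 9 to 19 it was 0.121 (exact permutation p = 0.686 and 0.657). In the fit over all transcripts by voom and limma, 0 members were called at an unadjusted p below 0.05 (edgeR 0, DESeq2 0). Of all transcripts tested 2.69% were called by limma, 2.1% by edgeR and 2.17% by DESeq2. The median difference of the members was -0.0007 log2 units, with 74 members higher and 76 lower in the male-interaction context, and -0.01 over all transcripts. The r of the members with the eigengene within a context had a median of 0.776 over the 8 male-interaction females and 0.907 over the 7 female-interaction females, where the eigengene spanned a wider range.

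The relation to social affiliation, the time a female spent near the stimuli, was where the members stood farthest from the background. In the female-interaction context the fitted slopes of all 150 members on affiliation were negative, with a median of -0.31 log2 units per 100 s against 0.0052 over all transcripts. Of the 150 members 67 (44.7%) were called at an unadjusted p below 0.05 in the limma fit, all with negative slopes. Of all transcripts tested 7.29% were called in either direction and 4.31% with a negative slope. After Benjamini-Hochberg adjustment over all 21671 transcripts limma called 0 members, and 0% of all transcripts, and DESeq2 called 1 member and 0.134% of all transcripts.

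Affiliation ran between 1506 s in female 17 and 1763 s in female 19 in the female-interaction context, and these 2 females also had the highest and the lowest level of the members. ENSPLAT00000002327.1 had 496, 321, 265, 209, 279, 212 and 160 TPM in females 17, 7, 1, 2, 8, 9 and 19, in order of rising affiliation. In the male-interaction context it lay between 200 and 310 TPM with a median of 273 TPM. Its slope in the female-interaction context was -0.45 ± 0.11 (SE) log2 units per 100 s (limma adjusted p = 0.55). ENSPLAT00000024014.1 had 19.4, 13.1, 12.3, 7.80, 11.0, 6.94 and 7.26 TPM in the same females in the same order, and between 9.20 and 16.8 TPM with a median of 12.9 TPM in the male-interaction context. Its slope in the female-interaction context was -0.49 ± 0.12 (SE) log2 units per 100 s (limma adjusted p = 0.583). In both members the value in female 17 was well above the next female.

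The count depended on single females. Without female 17 it was 7 of 150 (4.67%), where 8.16% of all transcripts were called in either direction and 3.14% with a negative slope, so the members no longer exceeded the share called in either direction. The direction stayed, with 147 of 150 slopes negative and a median of -0.26 log2 units per 100 s. Without female 19 the count was 37 (24.7%, against 5.92% of all transcripts). For the eigengene in the female-interaction context r was -0.722 (n = 7, exact permutation p = 0.0742, or 0.421 once adjusted) and rho was -0.714 (exact permutation p = 0.0881, or 0.473 once adjusted), while leaving out females 17 and 19, the farthest from the median affiliation, gave an r of -0.317. With the set of numbers, 1 to 8 or 9 to 19, as a term in the model 72 members (48%) were called, against 8.08% of all transcripts.

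In the male-interaction context the slopes on affiliation ran mostly the other way, with 138 of 150 positive and a median of 0.12 log2 units per 100 s, against -0.0036 over all transcripts. The limma fit called 6 members (4%), all with positive slopes, which is near the 5% of all transcripts called in either direction and the 2.72% called with a positive slope. After adjustment it called 0 members and 0.00461% of all transcripts, and DESeq2 called 0 members and 0.0461% of all transcripts. The smallest p-values belonged to ENSPLAT00000014541.1 and ENSPLAT00000019808.1. ENSPLAT00000019808.1 had 0.201 to 4.37 TPM with a median of 1.25 TPM in the male-interaction context, with its highest value in female 12, and 0.136 to 3.19 TPM with a median of 0.733 TPM in the female-interaction context. Its slope in the male-interaction context was 1.08 ± 0.38 (SE) log2 units per 100 s (limma adjusted p = 0.935). Female 12 had the highest affiliation (1795 s). Without her the median slope of the members was -0.05 log2 units per 100 s and 60 slopes were positive. No member was then called, against 4.75% of all transcripts. Without female 3 no member was called either, against 3.59% of all transcripts. For the eigengene in the male-interaction context r was 0.377 (n = 8, exact permutation p = 0.362, or 0.795 once adjusted) and rho was 0.143 (exact permutation p = 0.752, or 0.952 once adjusted), while leaving out the 2 females at the largest distance from the median gave an r of 0.0133. Over all 15 females r was -0.254 (permutation p = 0.36, or 0.795 once adjusted), rho was -0.232 (permutation p = 0.404, or 0.795 once adjusted) and r without the 2 farthest females was -0.429. Within females 1 to 8 r was -0.155 and within females 9 to 19 it was -0.457 (exact permutation p = 0.696 and 0.298).

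Whether the slopes of the contexts were unequal was tested in the same model. The slope in the male-interaction context exceeded that in the female-interaction context in all 150 members, with a median difference of 0.44 log2 units per 100 s against -0.01 over all transcripts. At an unadjusted p below 0.05 limma called 67 members (44.7%), all with a positive difference, where 6.09% of all transcripts were called in either direction and 3.55% with a positive difference. After adjustment it called 0 members and 0% of all transcripts, and DESeq2 called 0 members and 0.0461% of all transcripts. ENSPLAT00000024014.1, described above, had a difference of 0.67 ± 0.15 (SE) log2 units per 100 s (limma adjusted p = 0.685). ENSPLAT00000026902.1 lay between 2.39 and 6.59 TPM with a median of 3.66 TPM in the male-interaction context and between 0.838 and 7.66 TPM with a median of 4.17 TPM in the female-interaction context, and had a difference of 1.08 ± 0.26 (SE) log2 units per 100 s (limma adjusted p = 0.795). The count was 10 (6.67%) without female 12, where 3.87% of all transcripts were called, 17 (11.3%) without female 17, where 4.39% were called, and 37 (24.7%) without female 3, where 5.09% were called. For the eigengene, whose slope was 0.0859 per 100 s in the male-interaction context and -0.271 per 100 s in the female-interaction context, the exact permutation test of the difference gave p = 0.101 (adjusted p = 0.513). Within females 1 to 8 the eigengene slope was negative in both contexts, at -0.0717 per 100 s in the male-interaction context and -0.233 per 100 s in the female-interaction context (exact permutation p of the difference = 0.686, or 0.933 once adjusted). Within females 9 to 19 the slopes were 0.119 per 100 s with male stimuli and -0.291 per 100 s with female stimuli (exact permutation p of the difference = 0.229, or 0.751 once adjusted).

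**Figure D3:**
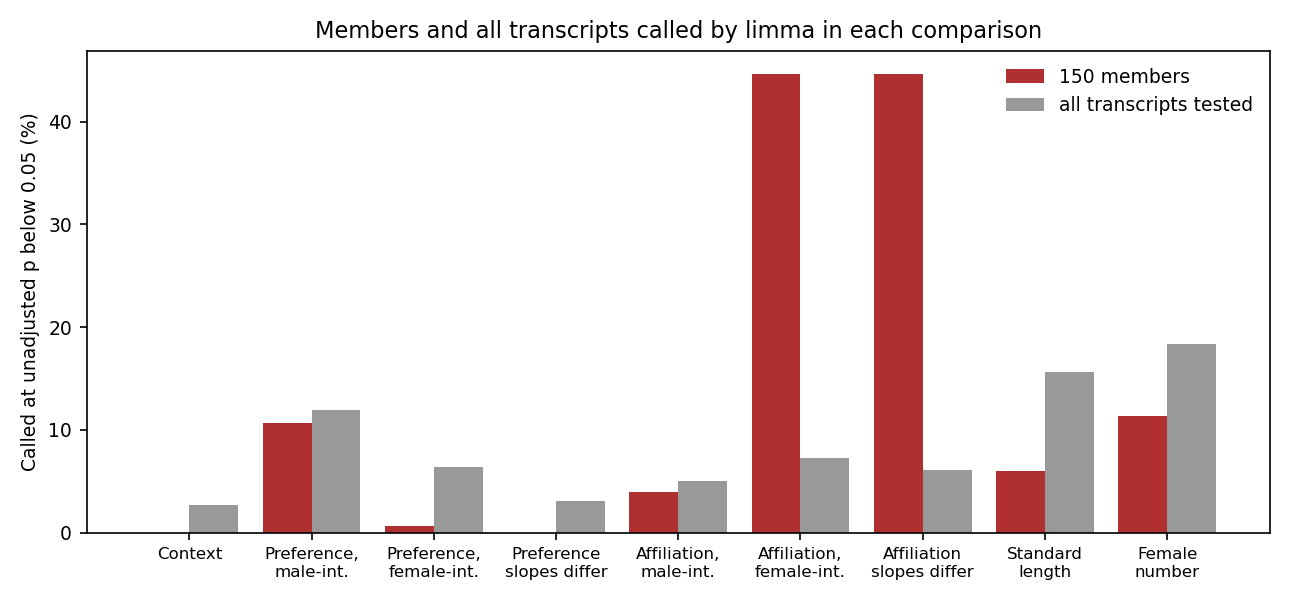
Share of the 150 members (left bar of each pair) and of all 21671 transcripts tested (right bar) called by limma at an unadjusted p below 0.05 in each comparison. Both bars count calls in either direction. The members exceed the background in the slope on affiliation in the female-interaction context and in the difference of the affiliation slopes, with 44.7% in each. They lie below it in the other 7. All calls of members within a comparison had 1 direction. Against the share called in that direction they are also higher for male-interaction preference (10.7%, 5.68%), male-interaction affiliation (4%, 2.72%) and the number (11.3%, 9.25%). They are lower for female-interaction preference and standard length.

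Fewer members were called for preference than for affiliation in the female-interaction context. The preference score is the share of all movements aimed at a stimulus fish that were aimed at the favored one. In the male-interaction context 146 of 150 slopes were negative, with a median of -0.82 log2 units per unit of the score against 0.12 over all transcripts. The limma fit called 16 members (10.7%), all with negative slopes. Of all transcripts 11.9% were called in either direction, near the share of the members, and 5.68% with a negative slope, below it. After adjustment limma called 0 members and 0.00461% of all transcripts, and DESeq2 called 0 members and 1.14% of all transcripts. ENSPLAT00000023767.1 lay between 13.2 and 25.9 TPM with a median of 17.6 TPM in the male-interaction context and between 11.8 and 26.6 TPM with a median of 14.7 TPM in the female-interaction context. Its slope in the male-interaction context was -1.69 ± 0.56 (SE) log2 units per unit of the score (limma adjusted p = 0.334). The count was 2 without female 12, 5 without female 3 or 4, 9 without female 11 and 35 without female 13, where between 8.32% and 11.5% of all transcripts were called and 1.33% to 23.3% of the members. The median slope was -0.50 log2 units per unit of the score without female 12. With the set of numbers as a term in the model limma called 23 members (15.3%), all with negative slopes. Of all transcripts 5.08% were then called in either direction and 2.64% with a negative slope, and the median slope of the members was -1.36.

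In the female-interaction context 148 of 150 slopes on preference were negative, also with a median of -0.82 log2 units per unit of the score against 0.03 over all transcripts. The limma fit called 1 member (0.667%), with a negative slope, where 6.39% of all transcripts were called in either direction and 2.35% with a negative slope. After adjustment limma called 0 members and 0% of all transcripts, and DESeq2 called 0 members and 0.305% of all transcripts. The direction rested on female 2, who had the highest score of that context (1). Without her 111 of 150 slopes were positive, with a median of 0.81 log2 units per unit of the score, and the 1 call (0.667%) was positive. The median over all transcripts was then also higher, at 0.23. Of all transcripts 4.76% were called in either direction and 2.66% with a positive slope. Without female 17 the median slope of the members was -0.39. Without female 7 it was -1.31, with 19 members called (12.7%, against 6.79% of all transcripts). The slopes of the contexts differed in 0 members at an unadjusted p below 0.05 by limma (edgeR 0, DESeq2 0). Of all transcripts 3.07% were called by limma, 3.35% by edgeR and 4.07% by DESeq2. Without female 2 the slope with male stimuli was the lower one in 140 of 150 members, with a median difference of -1.57 log2 units per unit of the score, and 7 members were called (4.67%, against 2.99% of all transcripts). With all females and after adjustment, limma called 0% of all transcripts for the difference of the preference slopes and for that of the contexts. DESeq2 called 0 members in both, and 0.0415% and 0.00461% of all transcripts in that order. For the eigengene over all females r was -0.392 (permutation p = 0.147, or 0.599 once adjusted) and rho was -0.402 (permutation p = 0.137, or 0.582 once adjusted), while leaving out the 2 females at the largest distance from the median score gave an r of -0.119. Within females 1 to 8 r was -0.598 and within females 9 to 19 it was -0.0693 (exact permutation p = 0.124 and 0.894). The eigengene slopes were -0.636 per unit of the score in the male-interaction context and -0.603 per unit in the female-interaction context, and the exact permutation test of their difference gave p = 0.964 (adjusted p = 0.979). Within females 1 to 8 the difference was -0.21 per unit (exact permutation p = 0.914, or 0.965 once adjusted). Within females 9 to 19 it was 19.0 per unit (exact permutation p = 0.114, or 0.555 once adjusted), from 3 female-interaction females whose scores all lay between 0.5 and 0.537, too narrow a range to fix a slope.

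**Figure D4:**
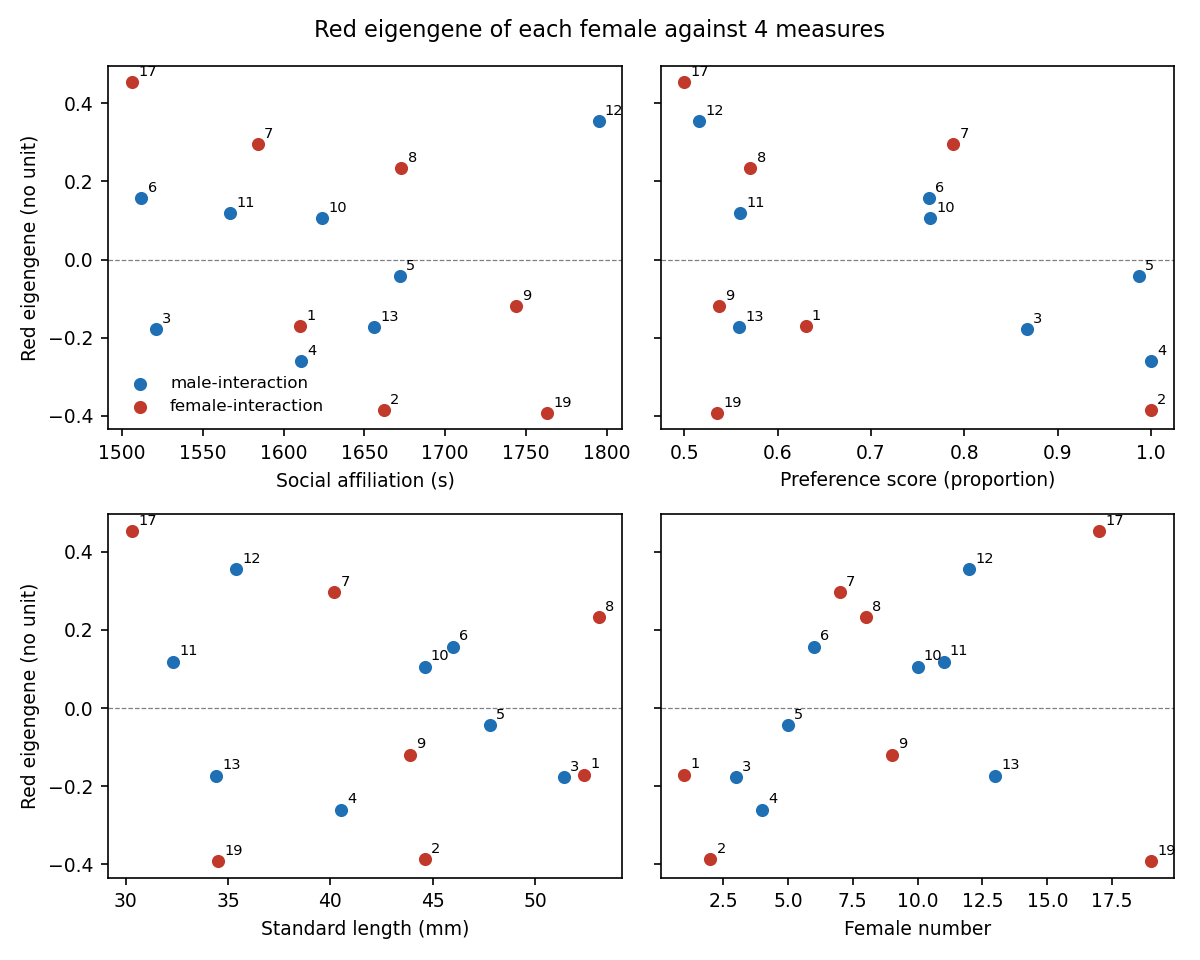
Red eigengene of each female (no unit) against social affiliation (s), preference score (proportion), standard length (mm) and the number of the female, with each point labelled by that number. Male-interaction and female-interaction females overlap on every axis. Female 17 combines the lowest affiliation with the highest eigengene, and female 12 has the highest affiliation of all.

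Standard length, the body length without the tail fin, was fitted with context in the model. Of the members 132 had a negative slope, with a median of -0.10 log2 units per 10 mm against 0.02 over all transcripts. The limma fit called 9 members (6%), all with negative slopes, below the 15.6% of all transcripts called in either direction and the 8.08% called with a negative slope. After adjustment limma called 0 members and 0% of all transcripts, and DESeq2 called 0 members and 1.42% of all transcripts. ENSPLAT00000020939.1 lay between 8.23 and 13.3 TPM with a median of 10.5 TPM in the male-interaction context and between 6.94 and 14.7 TPM with a median of 8.95 TPM in the female-interaction context. Its slope was -0.24 ± 0.08 (SE) log2 units per 10 mm (limma adjusted p = 0.194). With the set of numbers as a term no member was called, and 4.11% of all transcripts were. Standard length ran between 40.2 and 53.1 mm (median 46.9 mm) in females 1 to 8. In females 9 to 19 it ran between 30.3 and 44.6 mm (median 34.5 mm). The median preference score was 0.8275 in females 1 to 8 and 0.537 in females 9 to 19. These fits therefore cannot fully separate the set or the number from length or preference. Without female 17 the direction was nearly lost, with 81 slopes negative and 69 positive and a median of -0.01 log2 units per 10 mm. Then 1 member was called (0.667%, against 14.1% of all transcripts). The count was 4 without female 3 (2.67%, against 12% of all transcripts). It was 26 (17.3%) without female 19, where 13.8% of all transcripts were called and the median was -0.17. It was 28 (18.7%) without female 8, where 15.3% were called and the median was -0.19. For the eigengene r was -0.219 (permutation p = 0.429, or 0.795 once adjusted), rho was -0.155 (permutation p = 0.578, or 0.886 once adjusted), while leaving out the 2 females at the largest distance from the median length gave an r of 0.069. Within females 1 to 8 r was 0.0155 and within females 9 to 19 it was -0.257 (exact permutation p = 0.969 and 0.568).

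The number of the female was fitted in the same way. Of the members 141 had a positive slope, with a median of 0.02 log2 units per number against -0.002 over all transcripts. The limma fit called 17 members (11.3%), all with positive slopes, where 18.4% of all transcripts were called in either direction and 9.25% with a positive slope. After adjustment limma called 0 members and 2.62% of all transcripts, and DESeq2 called 6 members (4%) and 6.42% of all transcripts. ENSPLAT00000020939.1, the member with the smallest p, lay between 8.61 and 14.7 TPM with a median of 11.4 TPM in females 9 to 19 and between 6.94 and 11.0 TPM with a median of 9.08 TPM in females 1 to 8, and its slope was 0.04 ± 0.01 (SE) log2 units per number (limma adjusted p = 0.0761). The count was 98 (65.3%) without female 19, where 19.3% of all transcripts were called and the median slope was 0.05, and 3 (2%) without female 17, where 18.4% were called and the median slope was 0.009. It was also over 1.5 times lower without females 1 (7), 2 (6), 3 (7), 4 (11) and 12 (10). In that order these were 4.67%, 4%, 4.67%, 7.33% and 6.67% of the members. Of all transcripts 16.6%, 16.1%, 14.9%, 17% and 17.5% were called.

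The pattern along the numbers differed in form between the sets. In females 1 to 8 the mean deviation of the members was -0.24, -0.57, -0.29, -0.44, -0.12, 0.29, 0.48 and 0.37 log2 units in the order of the numbers, so the 5 lower-numbered females were below the mean and the 3 higher-numbered above it. For the eigengene r was 0.877 there (n = 8, exact permutation p = 0.00665, or 0.0969 once adjusted), rho was 0.81 (exact permutation p = 0.0218, or 0.266 once adjusted) while leaving out the 2 females at the largest distance from the median number gave an r of 0.958. In females 9, 10, 11, 12, 13, 17 and 19 the mean deviation was -0.26, 0.20, 0.22, 0.52, -0.22, 0.66 and -0.60 log2 units, with no order. For the eigengene r was -0.147 there (n = 7, exact permutation p = 0.744, or 0.952 once adjusted), rho was -0.107 (exact permutation p = 0.84, or 0.965 once adjusted) and r without the 2 farthest females was 0.105. Over all 15 females r was 0.288 (permutation p = 0.294, or 0.791 once adjusted), rho was 0.314 (permutation p = 0.252, or 0.756 once adjusted) and r without the 2 farthest females was 0.546. The difference between the sets was not tested. Over the family of 102 tests, neither adjusted p of females 1 to 8 was below 0.05.

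Measures of library composition were set beside the eigengene, and 4 of the 102 tests of the family passed after adjustment, all in females 9 to 19. They were the r and rho of 2 measures, the share of the top transcripts and the TMM factor given below. Both measures gave the same 7 females the same order, reversed for the share, so these 4 tests are not independent. Differences between the 2 sets of females were not tested. The share of all counts in the 100 most abundant transcripts ran between 16.9% and 19.8% in females 9 to 19 and between 15.8% and 18.7% in females 1 to 8. In females 9 to 19 its r with the eigengene was -0.953 (n = 7, exact permutation p = 0.00179, or 0.0455 once adjusted) and its rho was -1 (exact permutation p = 0.000397, or 0.0202 once adjusted), the same order reversed without exception, and r without the 2 farthest females was -0.875. In females 1 to 8 r was 0.744 (n = 8, exact permutation p = 0.0235, or 0.266 once adjusted), rho was 0.69 (exact permutation p = 0.0694, or 0.421 once adjusted) and r without the 2 farthest females was 0.345. Over all 15 females r was -0.0221 (permutation p = 0.937, or 0.965 once adjusted), rho was 0.0964 (permutation p = 0.733, or 0.952 once adjusted) and r without the 2 farthest females was 0.393.

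The mean annotated length per count, a measure of how far a library leans towards long transcripts, had no adjusted p below 0.05 in any set of females. In females 9 to 19 it ran between 2574 and 2882 bases and its r with the eigengene was 0.929 (n = 7, exact permutation p = 0.00298, or 0.0506 once adjusted), with a rho of 0.964 (exact permutation p = 0.00278, or 0.0506 once adjusted) and an r of 0.985 without the 2 farthest females. In females 1 to 8 it ran between 2733 and 2893 bases with an r of -0.714 (n = 8, exact permutation p = 0.0501, or 0.421 once adjusted), a rho of -0.762 (exact permutation p = 0.0368, or 0.375 once adjusted) and an r of -0.723 without the 2 farthest females. Over all 15 females r was 0.197 (permutation p = 0.477, or 0.821 once adjusted), rho was 0.05 (permutation p = 0.865, or 0.965 once adjusted) and r without the 2 farthest females was -0.155. The TMM factor, a scaling for composition that the CPM of the membership rule does not include, ran between 0.943 and 1.01 in females 9 to 19 and had an r with the eigengene of 0.964 there (n = 7, exact permutation p = 0.000992, or 0.0337 once adjusted), a rho of 1 (exact permutation p = 0.000397, or 0.0202 once adjusted) and an r of 0.903 without the 2 farthest females. In females 1 to 8 its r was -0.326 (n = 8, exact permutation p = 0.427, or 0.795 once adjusted), its rho was -0.333 (exact permutation p = 0.428, or 0.795 once adjusted) and its r without the 2 farthest females was -0.466. Over all 15 females its r was 0.223 (permutation p = 0.424, or 0.795 once adjusted), its rho was 0.0321 (permutation p = 0.914, or 0.965 once adjusted) and its r without the 2 farthest females was -0.187. Of the females without whom an affiliation count changed by over 1.5 times, 12, 17 and 19 were in the set 9 to 19, and 3 and 6 in the set 1 to 8. With TMM factors in the membership rule the core held 134 transcripts, 128 of them members. Female 17 had the lowest share of the 100 most abundant transcripts among females 9 to 19 (16.9%) and female 19 the highest (19.8%). With this share as a term in the affiliation model, an alternative chosen after seeing the data, 101 members were called with negative slopes in the female-interaction context (67.3%, against 8.84% of all transcripts) and 87 with unequal slopes (58%, against 8.89%). In that model the share had 1 common slope over all 15 females. The r of the share with the eigengene was -0.953 in females 9 to 19 and 0.744 in females 1 to 8. A common slope cannot take up relations of opposite sign. The part of the library composition in the eigengene itself was not tested.

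**Figure D5:**
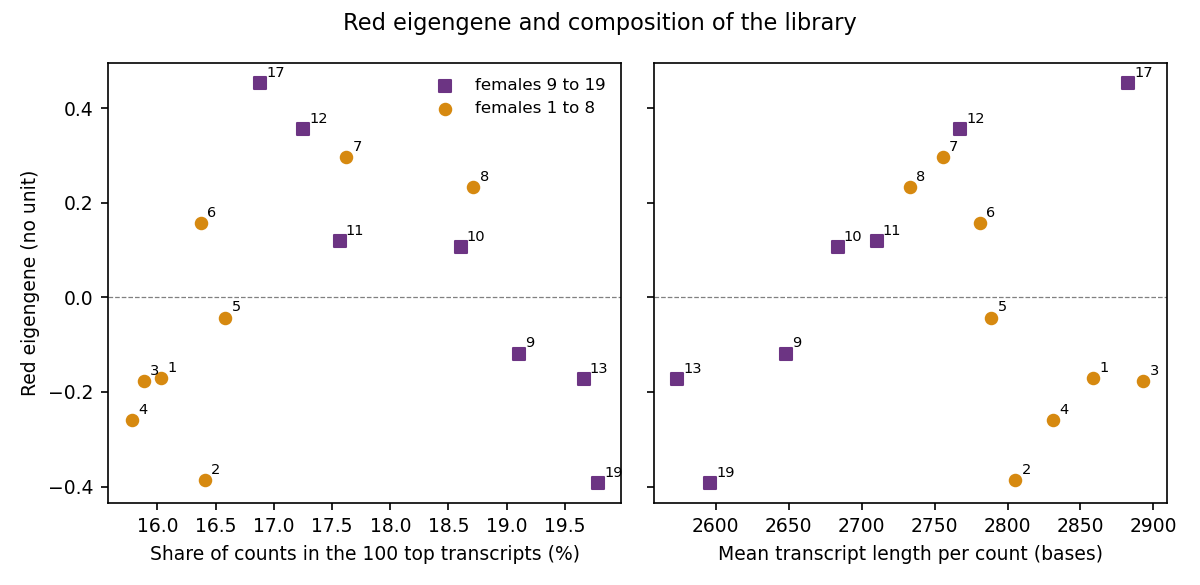
Red eigengene of each female (no unit) against the share of counts in the 100 most abundant transcripts (%) and the mean annotated length per count (bases). Squares are females 9 to 19 and circles females 1 to 8, each labelled by its number. The r of the left panel was -0.953 in females 9 to 19 and 0.744 in females 1 to 8.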

How the data were processed

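The authors prepared mRNA libraries, trimmed single-end reads and pseudoaligned them with kallisto 0.43.0 to Ensembl cDNA of P. latipinna. They deposited 1 table per female with, per transcript, an estimated count (not always whole) and a TPM value computed from it. The counts were not scaled between libraries, and TPM only to the same total. Trimming and the reference limit which reads count, and transcripts with shared sequence split their reads. The red eigengene, behavior and standard length came from a table of the paper, since the files hold none of them. The authors built the modules on genes, whereas transcripts were used here.

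A TPM over 2 in at least 3 females was required, which kept 99.6% of counts. Membership used log2(CPM + 1). Estimated counts were rounded and fitted over all 21671 transcripts with voom and limma 3.58.1 with TMM factors in R 4.3.3, using models with context, and preference or affiliation within context, and calls at an unadjusted p below 0.05. The study also used a shuffled-label rate, which was left out. edgeR 4.0.16, DESeq2 1.42.0, Benjamini-Hochberg adjustment, other scalings and filters, log2(TPM + 1) and each female left out were alternatives. Scripts were tested on simulated counts. Eigengene relations used exact permutations, or 100000 over all females, in 2-sided tests, with Benjamini-Hochberg adjustment over 102 tests in Python 3.11.15 with SciPy 1.17.1. No pair of libraries agreed within sampling noise (lowest chi-square per degree of freedom 9.61). The identifiers named were the 2 highest by r, by mean TPM and by SD, those nearest the threshold, the 2 lowest in r and up to 2 of smallest p per comparison. The members and lists were chosen with earlier results of these data known.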

Additional observations from a re-analysis of the deposited data

Results flagged for a closer look

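In the test of the difference between the affiliation slopes of the contexts, 67 of 150 members (44.7%) were called at an unadjusted p below 0.05 (limma), all with a positive difference, where 6.09% of all transcripts were called in either direction and 3.55% with a positive difference. After adjustment over all transcripts 0 members were called, and for the red eigengene the exact permutation test of the same difference gave p = 0.101 (adjusted p = 0.513). The number rests on females 12, 17 and 3. It was 10 without female 12 (6.67%, against 3.87% of all transcripts) and 17 without female 17 (11.3%, against 4.39%). It was 37 without female 3 (24.7%, against 5.09%). In 38 sets of values, the red eigengene, the mean deviation of the members and the named transcripts in each context, 0 females stood apart by Dixon's test, where chance gives about 1 in 20. The transcripts were chosen by their r with the eigengene, so the 38 sets are not independent. Dixon's test used these values alone and not the affiliation of the females.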

How the results depend on the processing

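Of the alternative values, 254 were counted as kept and 71 were not. A count was kept within 1.5 times the main count, whatever the direction of its calls. An eigengene value was kept with its direction and its side of the threshold. Without the 2 farthest females its direction alone was used. The preference count in Ff without female 2 was thus kept at 1, though its call changed direction. After adjustment the counts of 16, 1, 6, 67, 67, 9 and 17 members each became 0. Shares in brackets are of the members and then of all transcripts, called in either direction. Preference in Mm called 25 members with DESeq2 (16.7%, 12.5%). It called 9 without TMM factors (6%, 12.2%) or on log2(TPM + 1) (6%, 13.1%). In Ff it called 2 with edgeR (1.33%, 6.47%), 5 with DESeq2 (3.33%, 7.51%) and 4 with the number set as a term (2.67%, 2.98%). Affiliation in Mm called 1 with edgeR (0.667%, 3.85%), DESeq2 (0.667%, 4.24%) or log2(TPM + 1) (0.667%, 5.33%). It called 3 with the share of the top transcripts as a term (2%, 3.99%). In Ff affiliation called 108 on log2(TPM + 1) (72%, 9.29%) and 101 with that share (67.3%, 8.84%). Standard length called 2 on log2(TPM + 1) (1.33%, 13.3%) and 0 with the number set as a term (0%, 4.11%). The female's number called 35 with DESeq2 (23.3%, 19%) and 6 without TMM factors (4%, 18.9%). It called 5 on log2(TPM + 1) (3.33%, 20%) and 3 with the number set as a term (2%, 5.21%). With DESeq2 the members thus exceeded the share of all transcripts for preference in Mm and for the number, unlike in the main limma fit. For preference in Mm they also exceeded it with edgeR (12.7%, 11.2%). So they did with limma on every transcript with a count (12%, 11%) and with the number set as a term (15.3%, 5.08%). With another filter on counts (filterByExpr) they stayed below it (11.1%, 12.3%). The core held 470 transcripts at an r above 0.7 and 12 above 0.9.

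With each female left out in turn the counts of members ran between 0 and 1 for context, 2 and 35 for preference in Mm, 1 and 19 in Ff and 0 and 7 for their difference. They ran between 0 and 13 for affiliation in Mm, 7 and 87 in Ff and 10 and 88 for their difference, between 1 and 28 for standard length and 3 and 98 for the number. The 1 call for context came without female 17 (0.667%, against 2.75% of all transcripts). The 13 for affiliation in Mm came without female 6 (8.67%, against 5.16%). The 87 for affiliation in Ff came without female 8 (58%, against 8.38%), as did the 88 for the difference (58.7%, against 6.92%). For preference in the female-interaction context the 19 calls came without female 7 (12.7%, against 6.79%). The 10 came without female 19 (6.67%, against 5.44%). The 7 for the difference of preference slopes came without female 2 (4.67%, against 2.99%). The core held 133 (without female 17) to 192 transcripts (without female 9), with 97 of the 150 members left without female 17. The eigengene difference between contexts ran between -0.0407 and 0.1002, and was -0.074 in females 1 to 8. Its r ran between -0.558 and -0.265 with preference (-0.558 without female 19, permutation p = 0.0399), -0.545 and -0.0842 with affiliation (-0.545 without female 12, permutation p = 0.0444), -0.379 and -0.0172 with standard length, and 0.101 and 0.67 with the number (0.67 without female 19, permutation p = 0.00956). With standard length r was 0.0155 in females 1 to 8 and 0.069 without the 2 farthest females, and with the number 0.877 in females 1 to 8 and -0.147 in females 9 to 19. The cause of these changes was not tested. No paired analysis was possible because the contexts share no female numbers. With 7 and 8 females, the slopes within a context rest on few points, and calls at an unadjusted p include chance calls.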
